A study of Homo sapiens with 9 samples.

Results

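The RNA of human fibroblasts carrying a hairpin against RRM2 together with a hairpin against p16 was compared with the RNA of fibroblasts carrying vector only. The cells were IMR90, a line of fetal lung fibroblasts with a limited number of divisions in culture. All were grown in 2% oxygen and used at population doubling 30. The shRRM2/shp16 cells received pLKO.1-shRRM2 and, 24 hours later, pLKO.1-shp16. Control cells received the pLKO.1 vector both times, named as empty in the sample labels and as carrying GFP in the treatment protocol. Both groups were selected with 3 ug/mL puromycin for 7 days, so the controls share the 2 infections and the drug. Groups were taken from the labels, which gave 3 libraries of each kind, lettered a, b and c, or 6 of the 9 libraries in all. The remaining 3 carried the RRM2 hairpin with vector (shRRM2) and entered the same model, and they are used here only to place the values. No group had the p16 hairpin alone. The labels give 1 line and no statement on whether the libraries of a group came from separate cultures, so p-values measure the spread between these libraries, which may be technical.

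RRM2 encodes one subunit of ribonucleotide reductase, which supplies the deoxyribonucleotides (dNTPs) that DNA synthesis uses up. Loss of dNTPs stalls replication forks and, in primary fibroblasts, is known to bring on senescence, a lasting exit from the cell cycle. p16, encoded by CDKN2A, inhibits the cyclin D kinases CDK4 and CDK6, which keeps RB proteins bound to E2F factors and the genes of S phase silent. Senescent fibroblasts are also known for a secretory phenotype of chemokines, interleukins, growth factors and proteases, much of it driven by NF-kB. The labels describe the doubly targeted cells as having bypassed senescence. The libraries hold RNA levels and no measure of division, and in them the transcripts of replication and mitosis remained below control, as given below.

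Gene-assigned reads per library ranged from 17389791 to 24873291 in control and from 17939275 to 19346628 in shRRM2/shp16. Among uniquely aligned reads, 17.6% to 18.9% fell outside annotated genes in control and 23.5% to 24.4% in shRRM2/shp16, a difference that moves with the groups and whose part in the results was not tested. Levels are in CPM, counts over the scaled library size, and are listed for libraries a, b and c in that order. The fibroblast label was checked against 10 markers, which were all measured, with a summed level of 27162 to 28019 CPM in control and 22902 to 23494 in shRRM2/shp16. Of 8 epithelial markers, KRT5, KRT14, SFTPC and SCGB1A1 were at 0, and the list summed to 14.6 to 15.5 CPM in control and 12.1 in each shRRM2/shp16 library. The 8 leukocyte markers summed to 4.11 to 4.58 and 4.14 to 4.91 CPM, with CD3E and MS4A1 at 0. The 6 endothelial markers summed to 65.4 to 70.6 and 115 to 124 CPM, most of it TEK, while CDH5 had at most 1 count in a library. The 6 smooth muscle markers summed to 1134 to 1168 CPM in control and 406 to 423 in shRRM2/shp16, and they are taken up with the contractile genes.

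Both hairpin targets were below control. RRM2, or ENSG00000171848 (GRCh38 chromosome 2, 10120698 to 10131419, plus strand), was at 481, 491 and 484 CPM in control and 181, 175 and 176 in shRRM2/shp16, so every doubly targeted library held less than every control. This left 36.5% of the control level (log2 fold change -1.45 ± 0.03, the error being the standard error; adjusted p = 2.3e-36, edgeR quasi-likelihood test with Benjamini-Hochberg adjustment). All fold changes here, and all amounts by which a gene rose or fell, are on the log2 scale. With the RRM2 hairpin alone the mean was 62.1 CPM, and shRRM2/shp16 lay above that group by a log2 difference of 1.51 (adjusted p = 7.9e-34). CDKN2A, or ENSG00000147889 (GRCh38 chromosome 9, 21967753 to 21995301, minus strand), was at 5.95, 6.15 and 5.96 CPM in control and 4.33, 3.93 and 4.57 in shRRM2/shp16. The groups did not overlap, and the fold change was -0.49 ± 0.13 (adjusted p = 7.3e-04), while the shRRM2 mean was 6.5 CPM. CDKN2A overlaps CDKN2B-AS1 and AL359922.1 on the opposite strand, so reads of these genes may be mixed. Counts are per gene, so the p16 transcript is not separated from any others of CDKN2A.

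Counts were deposited for 64253 gene identifiers, and the 16561 with enough reads to be tested held 99.8% of the counts. In shRRM2/shp16 against control, 10339 of them passed the threshold, an adjusted p of 0.05, which is 62.4% of those tested. These were 4971 higher (30.0%) and 5368 lower (32.4%), and for 66.2% of tested genes the 3 values of one group all lay on one side of the other's. Most differences were small: 8254 of the calls (79.8%) were under 2-fold, and the median size of a call was 0.50 on the log2 scale. At least 2-fold, 1092 genes were higher (6.59%) and 993 lower (6.0%). With at least 10 counts in every sample these counts were 681 and 750, and with limma on RPKM at a pseudocount of 0.1 they were 961 and 657, so which direction had more 2-fold differences depends on the setting. At least 4-fold, 249 were higher and 123 lower, and at least 8-fold, 85 and 21. The median over all tested genes was 0.01. The replicates were close: edgeR's common biological coefficient of variation was 0.027, and the median standard error was 0.08. With that limma setting, 59.4% of calls were higher against 48.1% in the edgeR test, and the median of all genes moved to 0.11. That setting left out the library scaling of the edgeR test.

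**Figure D1:**
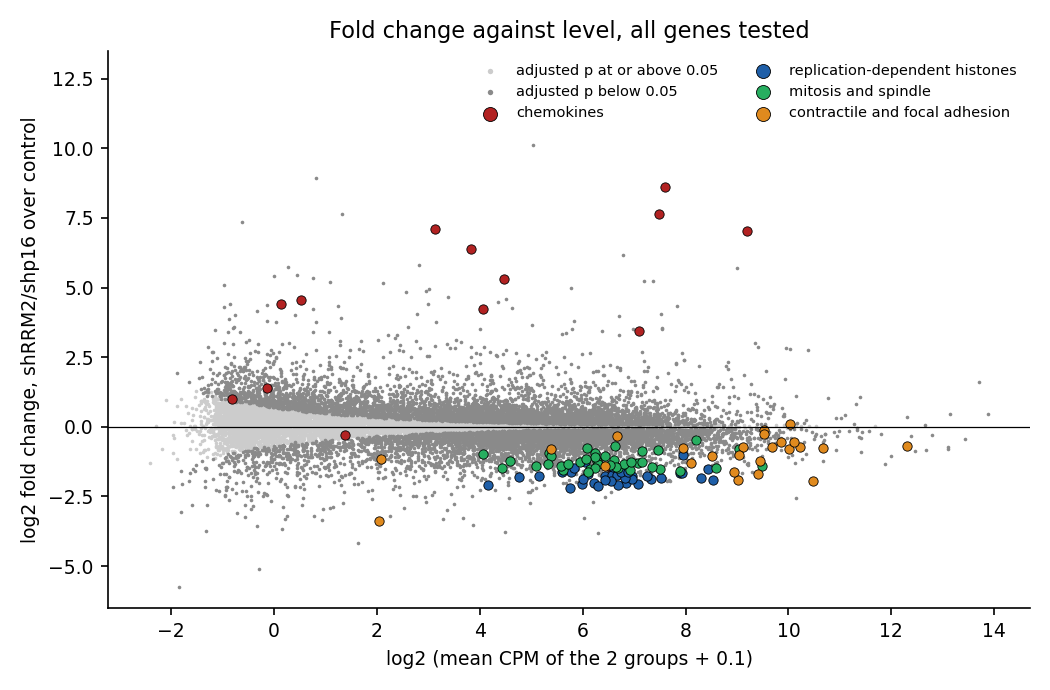
Each point is a tested gene; the x axis is the log2 mean CPM of the control and shRRM2/shp16 groups plus 0.1, and the y axis is the log2 fold change of shRRM2/shp16 over control, with 4 gene lists in colour. CXCL1, at 8.62, is the highest of the chemokines, and the mitosis and histone genes all lie below 0.

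The direction depended on the level and the kind of gene. Tested genes were split by level into 4 groups of 4140 or 4141. At the lowest levels, 524 genes were at least 2-fold higher and 272 at least 2-fold lower, and at the highest levels the counts were 139 and 237. Precision differed as much, with a median standard error of 0.33 in the lowest group and 0.04 in the highest, and 33.3% against 83.0% of genes called. Protein-coding genes had 4063 higher and 5008 lower calls among 13032, and a median of -0.03. Long intergenic RNAs had 229 higher and 91 lower among 793 (median 0.25), antisense RNAs 208 and 55 among 812 (median 0.29), and intronic RNAs on the sense strand 61 and 25 among 260 (median 0.27). The higher no-feature share of the shRRM2/shp16 libraries moves with these non-coding classes. Whether reads were counted by strand is not given in the sources used here, so antisense counts may include reads of the gene opposite.

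30 gene lists were then read one by one, each against the 30.0% and 32.4% of all tested genes that were higher and lower. Members were lower in every or nearly every tested case in the lists of replication, mitosis, histones, recombination and contractile genes. They were most often higher in the lists of chemokines, NF-kB genes and interleukins.

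**Figure D2:**
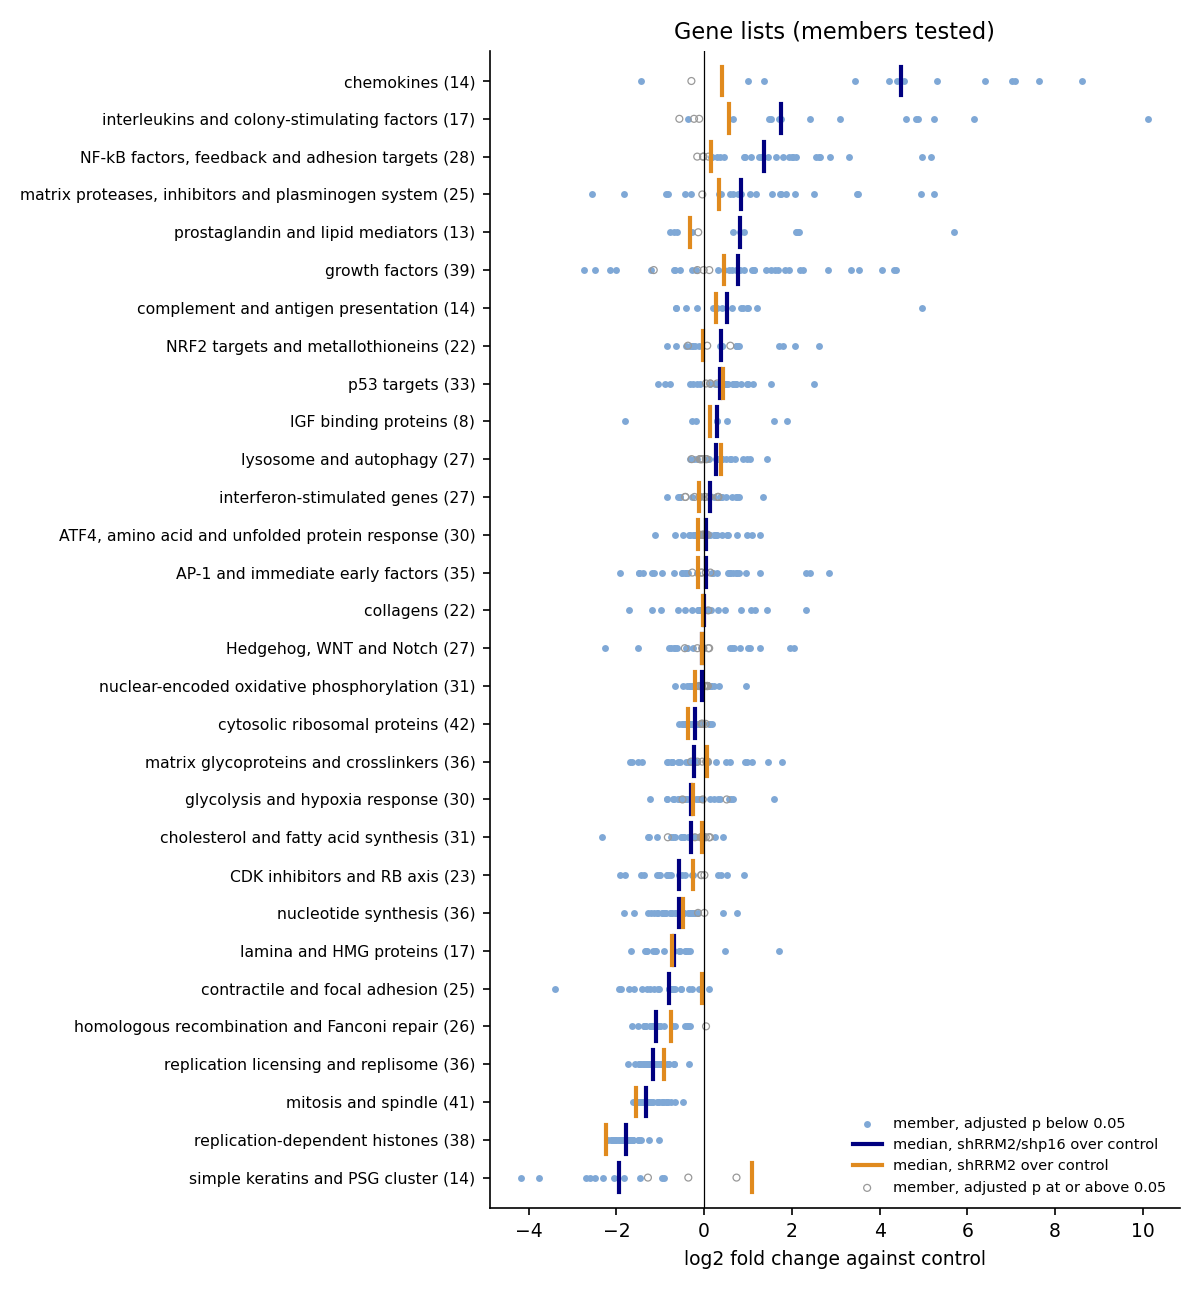
Each row is 1 gene list and each point 1 tested member; the x axis is the log2 fold change over control, filled points have an adjusted p under 0.05 and open points do not, dark bars are list medians for shRRM2/shp16 and orange bars those for shRRM2. The chemokine median is 4.48 for shRRM2/shp16 and 0.41 for shRRM2, and the histone medians are -1.79 and -2.24.

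Genes of DNA replication were lower without exception. All 36 members of the list of licensing factors and replisome subunits fell, 27 of them at least 2-fold, with a median of -1.17. In bulk RNA, fewer cells in S phase and less of a transcript per cell cannot be told apart. GINS2, a subunit of the GINS complex in the replicative helicase, was at 26.7, 29.2 and 27.8 CPM in control and 8.24, 8.71 and 8.17 in shRRM2/shp16. CDT1, which loads the MCM helicase at origins, was at 47.6, 47 and 48.4 CPM in control and 15.1, 15.8 and 16.9 in shRRM2/shp16. The groups were apart for both genes, with fold changes of -1.73 ± 0.08 (adjusted p = 1.9e-23) and -1.58 ± 0.06 (adjusted p = 9.1e-26). MCM2, part of that helicase, fell by 1.32, PCNA, the sliding clamp, by 0.68, and RPA2, which coats single-stranded DNA, by 0.34. Against the RRM2 hairpin alone, 22 of the 36 were lower and 3 higher, where 29.1% and 31.9% of all tested genes were lower and higher. The shRRM2 median over control was -0.91, with the control libraries common to both comparisons.

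Mitotic genes were likewise below control, and here most lay above the RRM2 hairpin alone. Of 42 genes of the spindle, kinetochore and mitotic exit, 41 were tested and all 41 fell, 32 of them at least 2-fold (median -1.33, shRRM2 median -1.56). PLK1, a mitotic kinase, was at 181, 182 and 177 CPM in control and 61.7, 60.8 and 60.2 in shRRM2/shp16 (-1.57 ± 0.04, adjusted p = 8.0e-34). MKI67, the proliferation marker Ki-67, was at 1042, 1019 and 1046 CPM in control and 392, 377 and 399 in shRRM2/shp16 (-1.41 ± 0.03, adjusted p = 7.1e-36). Neither gene's groups overlapped, and the doubly targeted libraries were the low ones. CCNB1, cyclin B1, fell by 1.29, TOP2A, the topoisomerase that untangles chromosomes, by 0.81, and CENPF, a kinetochore protein, by 0.48. Against shRRM2, 31 of the 41 were higher and 3 lower. KIF20A, a kinesin of the central spindle, stood 1.18 above shRRM2 (adjusted p = 1.4e-25).

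Replication-dependent histone genes, whose transcripts accumulate in S phase, had the lowest median of the cell cycle lists. Of 39 genes, 38 were tested, and all 38 fell at least 2-fold (median -1.79). HIST1H2BM was at 159, 169 and 172 CPM in control and 38.2, 40.4 and 38.3 in shRRM2/shp16, with all 3 doubly targeted libraries below all controls (-2.09 ± 0.05, adjusted p = 3.3e-35). All 38 were above shRRM2, whose median over control was -2.24. Many histone genes are near-identical copies, so the split of reads between them is uncertain. Genes of homologous recombination and the Fanconi pathway fell in 25 of 26 cases (median -1.09), among them RAD54L, a motor on recombination filaments (-1.66 ± 0.08), and BRCA1 (-0.74 ± 0.06); PALB2, the BRCA1-BRCA2 bridge, was at 0.04 ± 0.07 (adjusted p = 0.59).

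The promoters of these lists are shown because their members moved together, and because E2F sites are known in S phase genes, CHR elements in mitotic genes and CCAAT boxes in histone genes. E2F1, printed with them, is from the list of CDK inhibitors and RB pathway genes, whose members moved in both directions. Sequences are the 150 bases before the RefSeq start site on GRCh38.p14, written 5′ to 3′ on the gene's strand, with the searched letters in capitals. Capitals mark E2F-type letters (TTTCCCGC, TTTCGCGC, TTTGCCGC or TTTGGCGC) in GINS2 (chr16:85688955-85689104, minus strand), CDT1 (chr16:88803639-88803788, plus strand) and E2F1 (chr20:33686386-33686535, minus strand), the CHR letters TTTGAA in PLK1 (chr16:23678739-23678888, plus strand), CDCA8 (chr1:37692366-37692515, plus strand) and CCNB2 (chr15:59104996-59105145, plus strand), and CCAAT in HIST1H2BM (chr6:27814872-27815021, plus strand), each searched on both strands.
GINS2: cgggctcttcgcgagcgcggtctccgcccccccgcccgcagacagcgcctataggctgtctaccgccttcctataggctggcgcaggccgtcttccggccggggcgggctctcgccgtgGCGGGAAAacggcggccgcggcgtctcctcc
CDT1: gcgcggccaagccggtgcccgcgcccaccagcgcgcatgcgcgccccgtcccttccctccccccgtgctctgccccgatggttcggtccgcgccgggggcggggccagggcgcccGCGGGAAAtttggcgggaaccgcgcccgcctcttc
E2F1: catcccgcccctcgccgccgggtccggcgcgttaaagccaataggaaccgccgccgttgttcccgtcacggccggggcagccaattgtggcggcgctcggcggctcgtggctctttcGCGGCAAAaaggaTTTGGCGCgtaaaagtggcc
PLK1: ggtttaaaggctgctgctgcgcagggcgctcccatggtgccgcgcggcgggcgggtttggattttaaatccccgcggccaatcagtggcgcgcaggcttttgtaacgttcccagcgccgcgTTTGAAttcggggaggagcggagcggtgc
CDCA8: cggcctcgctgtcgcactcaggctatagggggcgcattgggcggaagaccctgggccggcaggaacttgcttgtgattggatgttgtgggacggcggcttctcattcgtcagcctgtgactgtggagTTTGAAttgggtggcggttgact
CCNB2: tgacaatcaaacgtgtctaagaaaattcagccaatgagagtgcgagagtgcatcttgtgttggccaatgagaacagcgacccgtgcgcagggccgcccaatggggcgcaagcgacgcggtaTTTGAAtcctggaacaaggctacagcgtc
HIST1H2BM: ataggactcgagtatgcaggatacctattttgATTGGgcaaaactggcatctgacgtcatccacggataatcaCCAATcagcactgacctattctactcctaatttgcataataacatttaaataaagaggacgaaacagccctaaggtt

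In windows of 250 bases before to 50 after the start, E2F-type letters were in 18 of 31 replication promoters with an entry (58.1%), against 3.33% of all 27305 promoters and 5.29% of the 11231 of tested genes. In the mitosis list, 24 of 34 promoters held TTTGAA (70.6%, against 15.4% of all and 10.0% of tested genes) and 2 held E2F-type letters. In the histone list, 27 of 30 promoters held CCAAT (90.0%, against 35.7% and 36.4%). CCAAT was not particular to histones, at 70.6% in the mitosis list and 61.3% in the replication list. It was at 74.1% in the list of ATF4 and unfolded protein response genes, which split in direction. Over the genes at least 2-fold lower with an entry, 700 in all, 11.4% held E2F-type letters, 19.6% the CHR letters and 44.3% CCAAT. A CHR and a CCAAT read on the other strand can share bases. The examples printed were picked for a match. In the 150 bases before the start, MCM2, POLE2, CLSPN and RRM2 held no E2F-type letters and CCNB1 held no TTTGAA. A match describes letters and shows no binding.

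**Figure D3:**
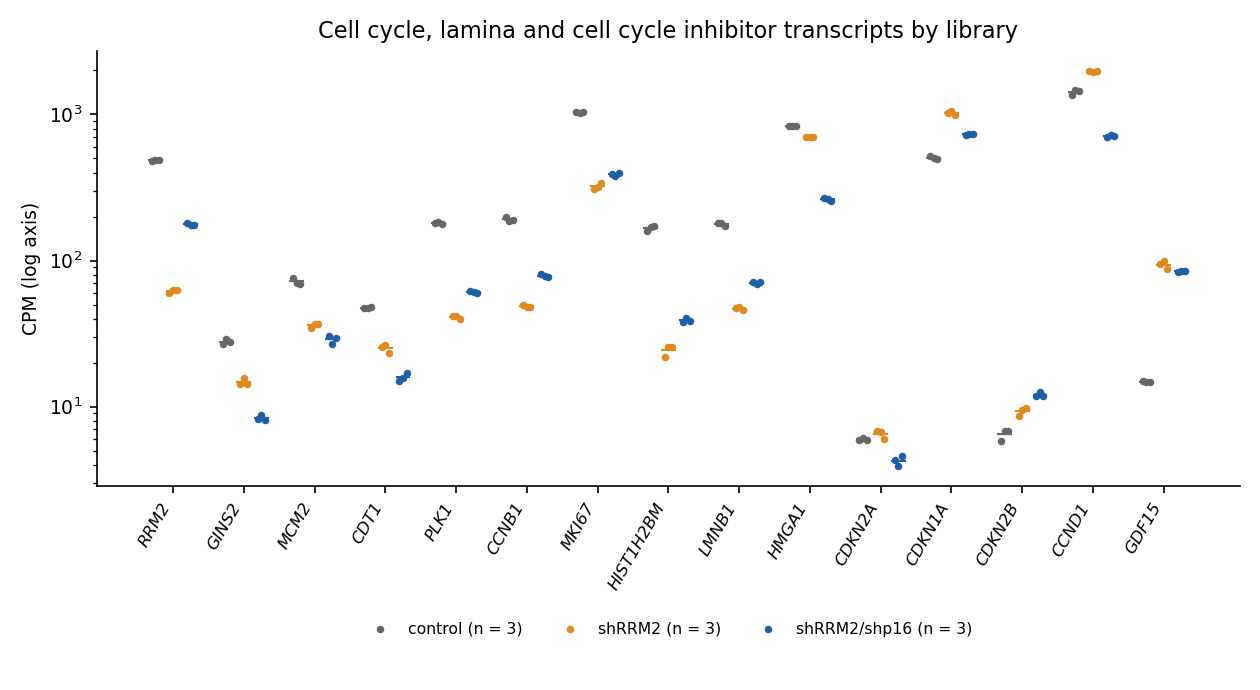
CPM on a log axis for 15 genes of the cell cycle, the nuclear lamina and the p53 and CDK inhibitor groups, with 1 point a library, 3 libraries a group and a line at each group mean (control grey, shRRM2 orange, shRRM2/shp16 blue). GINS2, PLK1 and MKI67 sit below control in all 3 blue libraries, and CDKN1A, CDKN2B and GDF15 sit above control.

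Nucleotide synthesis genes were mostly lower, by less. Of 36, 32 fell and 2 rose, with 7 lower at least 2-fold and a median of -0.56. PRPS1, which makes the ribose donor for purines and pyrimidines, was at 105, 94.5 and 93.7 CPM in control and 29.8, 28.4 and 24.6 in shRRM2/shp16 (-1.83 ± 0.05, adjusted p = 7.3e-30). These values do not overlap, and the shRRM2 mean was 85.9 CPM. TK1, thymidine kinase, fell by 1.59 and RRM1, the large subunit of the reductase, by 1.05. RRM2B, the p53-inducible small subunit that can replace RRM2, rose by 0.74, as did ADSS, a purine enzyme, by 0.43.

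In the list of CDK inhibitors and RB pathway genes, 4 of 23 tested members rose and 16 fell (median -0.56). E2F1, an activator E2F, was at 35.3, 35.2 and 35.8 CPM in control and 13.3, 12.7 and 12.8 in shRRM2/shp16 (-1.45 ± 0.07, adjusted p = 6.9e-23). CCND1, cyclin D1, was at 1366, 1472 and 1450 CPM in control and 703, 721 and 717 in shRRM2/shp16 (-1.0 ± 0.03, adjusted p = 4.4e-32). Both were low in every doubly targeted library, although for CCND1 the shRRM2 mean was 1974 CPM, above control. The inhibitors went the other way in part. CDKN1A, p21, was at 516, 499.9 and 499 CPM in control and 724, 733 and 730.4 in shRRM2/shp16 (0.53 ± 0.03, adjusted p = 8.8e-22), and CDKN2B, p15, was at 5.87, 6.82 and 6.85 CPM in control and 11.9, 12.6 and 11.8 in shRRM2/shp16 (0.91 ± 0.10, adjusted p = 9.4e-11). Neither pair of groups overlapped. CDKN1A had a shRRM2 mean of 1029 CPM, so the doubly targeted level lay between the others. CDKN2C, p18, fell by 1.36, and RB1 was at -0.06 ± 0.04 (adjusted p = 0.25).

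Targets of p53 were more often higher than lower, with 22 of 33 rising and 7 falling (median 0.36). GDF15, a secreted stress cytokine, was at 15.1, 14.7 and 14.7 CPM in control and 83.7, 84.9 and 84.8 in shRRM2/shp16 (2.51 ± 0.06, adjusted p = 6.9e-35). PLK2, a stress-induced kinase, was at 215, 204 and 205 CPM in control and 607, 599 and 591 in shRRM2/shp16 (1.52 ± 0.03, adjusted p = 2.6e-37), against a shRRM2 mean of 179 CPM. Both were higher in all 3 doubly targeted libraries. MDM2, the ubiquitin ligase for p53, rose by 0.66, and GADD45B, a stress-response gene, fell by 1.05. Only 4 of the rises were at least 2-fold. In the list of lamina and HMG proteins, 15 of 17 fell (median -0.69). LMNB1, lamin B1, whose loss is a known mark of senescent fibroblasts, was at 179, 179.9 and 173 CPM in control and 70.8, 69.3 and 71 in shRRM2/shp16, with no overlap (-1.34 ± 0.04, adjusted p = 1.6e-31). The shRRM2 mean of LMNB1 was 46.9 CPM, and shRRM2/shp16 lay above that group by 0.59. HMGA1, an architectural chromatin protein, was at 837, 839 and 828 CPM in control and 268, 264 and 255 in shRRM2/shp16 (-1.67 ± 0.03, adjusted p = 5.2e-40), also without overlap, where the shRRM2 mean was 700.4 CPM. The 2 higher members were the nuclear long RNAs NEAT1 (1.71 ± 0.03) and MALAT1 (0.47 ± 0.02).

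Chemokines had the highest median of the 30 lists. Of 24 fixed, 14 passed the filter, 12 rose, each at least 2-fold, and 1 fell, with a median of 4.48 over the tested members. CCL20, which draws in dendritic cells and lymphocytes, was at 0.168, 0.168 and 0 CPM in control and 17, 18.5 and 16.2 in shRRM2/shp16, so a member this low in control passed the filter only through other groups, and the median describes the tested members alone. CXCL8 (ENSG00000169429), the neutrophil chemoattractant interleukin-8, was at 8.21, 9.56 and 9.06 CPM in control and 1116, 1179 and 1182 in shRRM2/shp16. CXCL1 (ENSG00000163739), another ligand of CXCR2, was at 0.754, 1.12 and 1.13 CPM in control and 379.8, 389 and 386 in shRRM2/shp16. Every doubly targeted library stood far above every control, by 7.03 ± 0.05 on the log2 scale for CXCL8 (adjusted p = 2.2e-54) and 8.62 ± 0.07 for CXCL1 (adjusted p = 2.6e-51). CXCL5, a further CXCR2 ligand, was at 1.59, 2.24 and 1.55 CPM in control and 346, 358 and 366 in shRRM2/shp16 (7.64 ± 0.07, adjusted p = 9.5e-50). CCL2, which recruits monocytes, was at 22.6, 23.4 and 23.6 CPM in control and 243, 251 and 259 in shRRM2/shp16 (3.44 ± 0.04, adjusted p = 1.7e-43), again with no overlap. The RRM2 hairpin alone gave means of 15.2 CPM for CXCL8, 1.33 for CXCL1 and 37.9 for CCL2. CXCL12, the homeostatic ligand of CXCR4, was the member that fell, at 130.3, 131 and 143 CPM in control and 48.6, 50.9 and 48.2 in shRRM2/shp16 (-1.45 ± 0.04, adjusted p = 7.2e-30), and the shRRM2 mean was lower still at 29 CPM. With at least 10 counts required in every sample, 6 chemokines were tested, of which 4 rose and 1 fell. CXCL1, CXCL2 and CXCL3 are close copies of each other, so their split of reads is uncertain.

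Interleukins and colony-stimulating factors rose in 13 of 17 tested cases and fell in 1, of 23 fixed (median 1.75, shRRM2 median 0.57). With at least 10 counts in every sample, 11 were tested, 8 rose and 1 fell, and without control replicate c 2 of the 17 fell. IL1B, interleukin-1 beta, an upstream inducer of NF-kB, was at 3.02, 2.29 and 3.81 CPM in control and 216, 213 and 219 in shRRM2/shp16 (6.16 ± 0.07, adjusted p = 5.2e-46). IL1A, interleukin-1 alpha, was at 0.419, 0.224 and 0.536 CPM in control and 10.4, 10.7 and 12.8 in shRRM2/shp16 (4.82 ± 0.20, adjusted p = 2.1e-24). IL6, a defining cytokine of the secretory phenotype, was at 7.04, 7.21 and 8.4 CPM in control and 283, 281 and 286 in shRRM2/shp16 (5.24 ± 0.06, adjusted p = 4.5e-47). For all 3 genes the doubly targeted libraries were the high ones and the groups were apart, and for IL6 the shRRM2 mean was 34.4 CPM. LIF, a cytokine of the same receptor family, was at 76.7, 80 and 81.3 CPM in control and 431, 412 and 419.6 in shRRM2/shp16 (2.41 ± 0.03). The member that fell was CSF1, the macrophage growth factor (-0.37 ± 0.05, adjusted p = 5.4e-08). CSF3, the granulocyte growth factor, had 3 reads over the 3 control libraries and 1213 to 1313 in each shRRM2/shp16 library, a ratio of 1271 (95% counting interval 434 to 6164). With at most 8 counts in a shRRM2 library, CSF3 passed the filter only through shRRM2/shp16, so its rise follows from the filter. The list median describes the tested members alone.

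The NF-kB list held the factors themselves, their feedback inhibitors and adhesion targets, and 24 of 28 tested members rose, 17 at least 2-fold, with 0 lower (median 1.37, shRRM2 median 0.16). Feedback inhibitors were among them. TNFAIP3, the A20 ubiquitin editor, was at 18.7, 21.4 and 17.6 CPM in control and 191, 182 and 195 in shRRM2/shp16 (3.30 ± 0.05, adjusted p = 9.0e-41). NFKBIA, the inhibitor IkB-alpha, was at 30.5, 30.7 and 29.6 CPM in control and 127, 123 and 118 in shRRM2/shp16 (2.02 ± 0.05, adjusted p = 1.0e-33). SOD2, the mitochondrial superoxide dismutase, was at 159.6, 166 and 162 CPM in control and 1176, 1209 and 1204 in shRRM2/shp16 (2.88 ± 0.03, adjusted p = 1.0e-47). All 3 were higher in each doubly targeted library than in each control. Of the factors, RELB rose by 2.10 and NFKB2 by 1.45, while RELA, the subunit regulated mainly by its location, was at -0.03 ± 0.04 (adjusted p = 0.55). ICAM1, a leukocyte adhesion receptor, was at 17.2, 18.8 and 16.7 CPM in control and 108, 105 and 111 in shRRM2/shp16 (2.62 ± 0.05), and here the shRRM2 mean of 103 CPM was already high. Against shRRM2, 21 of the 28 were higher and 1 lower. The leukocyte markers given above, with sums of 4.11 to 4.91 CPM, were near 0 in both groups.

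**Figure D4:**
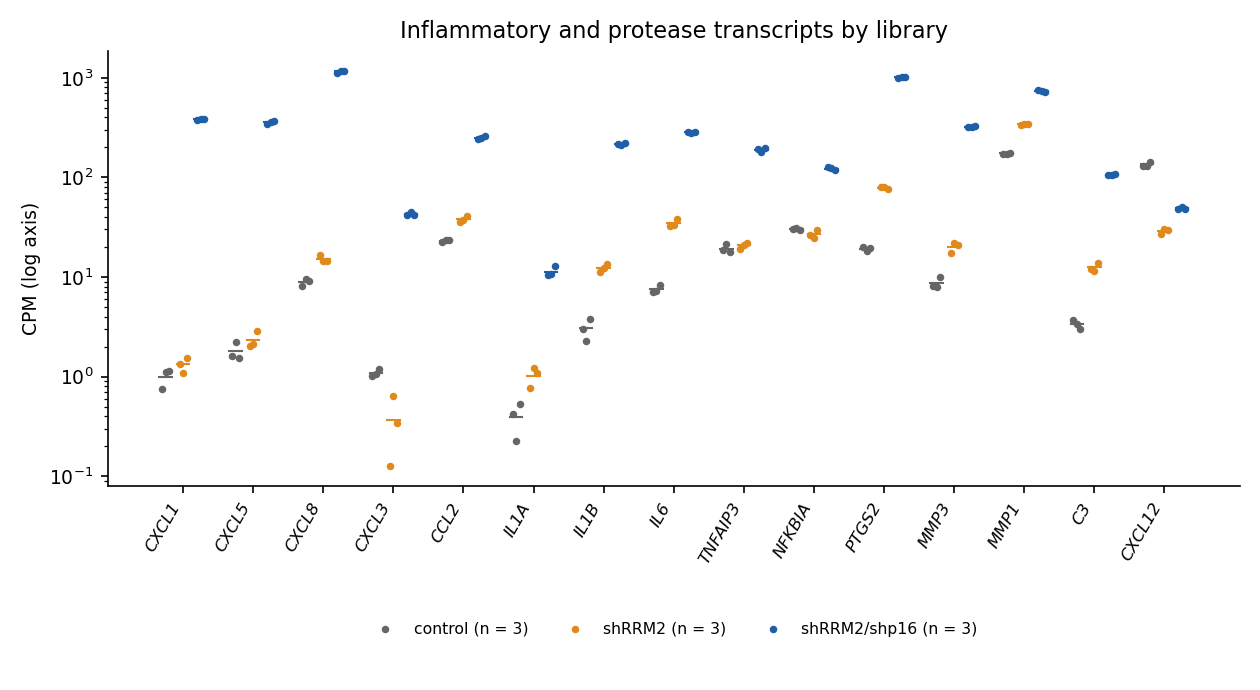
CPM on a log axis for 15 genes of chemokines, interleukins, NF-kB feedback, prostaglandin synthesis, proteases and complement, with 1 point a library, 3 libraries a group and a line at each group mean (control grey, shRRM2 orange, shRRM2/shp16 blue). In 14 of them the blue libraries are the highest, as for CXCL8 at 1116, 1179 and 1182 CPM, and in CXCL12 they lie below control.

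The promoters of 5 of these genes are shown because sites for NF-kB are known close to their start. Capitals mark the kappaB-type letters GGNNTTTCC, searched on both strands, in the 150 bases before the RefSeq start on GRCh38.p14, of CXCL1 (chr4:73869243-73869392, plus strand), CXCL5 (chr4:73998678-73998827, minus strand), CXCL8 (chr4:73740419-73740568, plus strand), IL6 (chr7:22727050-22727199, plus strand) and NFKBIA (chr14:35404750-35404899, minus strand). CXCL1 has 2 matches, the first at -78 from the start, and CXCL8 has its match at -91.
CXCL1: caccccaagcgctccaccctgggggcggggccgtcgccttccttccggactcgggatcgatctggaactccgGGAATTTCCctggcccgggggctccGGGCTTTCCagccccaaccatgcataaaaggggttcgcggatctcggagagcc
CXCL5: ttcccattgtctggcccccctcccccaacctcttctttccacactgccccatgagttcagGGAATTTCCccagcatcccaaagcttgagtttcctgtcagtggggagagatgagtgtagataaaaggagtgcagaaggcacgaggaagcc
CXCL8: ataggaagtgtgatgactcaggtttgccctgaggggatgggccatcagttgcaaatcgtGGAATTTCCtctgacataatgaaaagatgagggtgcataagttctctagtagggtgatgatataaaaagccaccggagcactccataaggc
IL6: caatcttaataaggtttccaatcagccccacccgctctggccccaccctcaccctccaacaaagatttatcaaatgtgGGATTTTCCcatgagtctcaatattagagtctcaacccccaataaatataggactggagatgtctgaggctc
NFKBIA: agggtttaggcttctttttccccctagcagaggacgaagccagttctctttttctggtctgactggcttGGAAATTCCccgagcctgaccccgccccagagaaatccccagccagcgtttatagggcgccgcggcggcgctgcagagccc

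In the windows of 250 bases before to 50 after the start, these letters were in 8 of 11 chemokine promoters with an entry (72.7%) and 11 of 24 of the NF-kB list (45.8%), against 6.26% of all promoters and 6.63% of those of tested genes. The 11 promoters do not cover the 24 chemokines fixed, of which 14 were tested. CCL20, which passed the filter only through other groups than control, held a match, so the chemokine share depends on the filter. Among all genes at least 2-fold higher with an entry the count was 59 of 623 (9.47%). In the interleukin list, to which IL6 belongs, 2 of 11 promoters held the kappaB-type letters (18.2%). Other lists lay on both sides of that share. The share was 23.8% among interferon-stimulated genes (5 of 21) and 19.4% in the replication list (6 of 31), whose members fell. In the mitosis list, whose members also fell, the share was 2.94% (1 of 34). The promoters printed were picked for a match, and IL1B and PTGS2, which also rose, held none in the 150 bases before the start. The bases TTTCC belong to both the kappaB-type pattern and one E2F pattern, so a promoter can match both.

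The CXC chemokine genes and a group of epidermal growth factor (EGF) ligands lie in one interval of GRCh38 chromosome 4 (chr4:73740506-74794686, about 1054 kb), chosen after its values were seen. Of its 14 protein-coding genes, 10 were tested and 10 rose, from the chemokine CXCL8 at one end to EREG and AREG, ligands of the EGF receptor, at the other. PF4V1 had at most 2 counts in a control library and CXCL6 at most 7, with shRRM2 means of 0 and 0.338 CPM. Both passed the filter only through shRRM2/shp16, so their rise follows from the filter. The interval also holds MTHFD2L, a mitochondrial folate enzyme, which rose by 1.24. EREG was at 19, 22.2 and 21.8 CPM in control and 339.9, 351 and 349.8 in shRRM2/shp16 (4.06 ± 0.04, adjusted p = 1.2e-46), without overlap. AREG rose by 4.33. PF4, PPBP, EPGN and BTC had at most 6 counts in a library and were not tested.

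**Figure D5:**
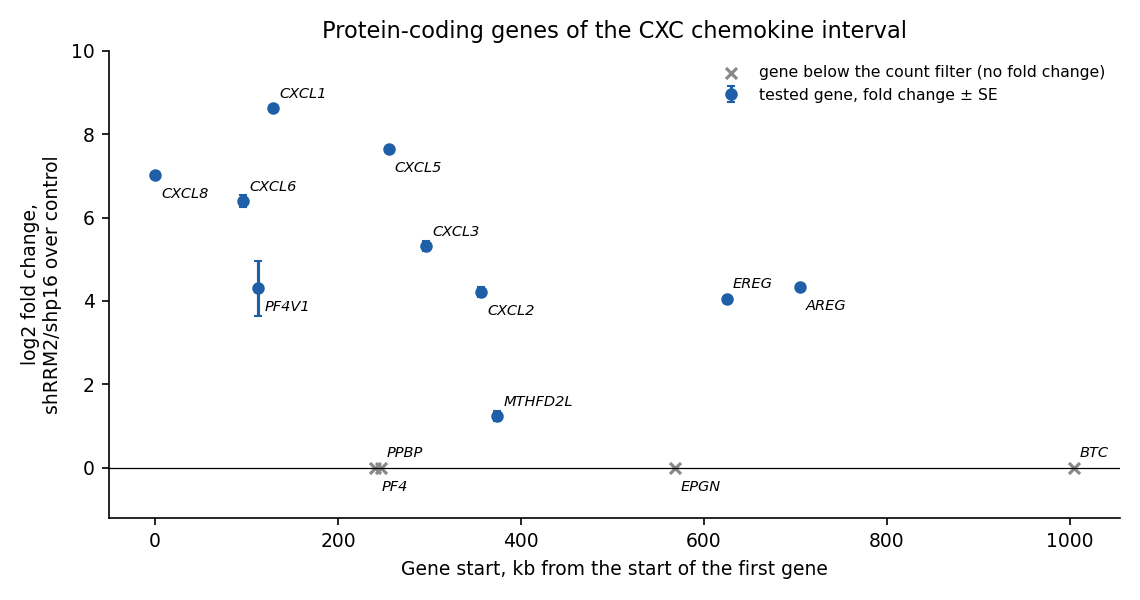
Log2 fold change of shRRM2/shp16 over control, with its standard error, against the position of each protein-coding gene start in kb from the first gene start of the chromosome 4 interval; crosses on the 0 line are the 4 genes below the filter. All 10 tested genes lie above 0, CXCL1 highest at 8.62 and MTHFD2L at 1.24, and PF4V1 and CXCL6 passed the filter only through shRRM2/shp16.

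Growth factor genes were changed in both directions by large amounts. Of 39 tested, 25 rose, 17 at least 2-fold, and 10 fell, 5 at least 2-fold (median 0.78). NRG1, a neuregulin ligand of ERBB receptors, was at 29.8, 30.3 and 28.6 CPM in control and 344, 340.1 and 344 in shRRM2/shp16 (3.53 ± 0.04, adjusted p = 9.9e-47). STC1, the secreted glycoprotein stanniocalcin, was at 243, 249 and 244 CPM in control and 1731, 1759 and 1744 in shRRM2/shp16 (2.83 ± 0.03, adjusted p = 1.4e-48). The groups did not overlap in either. FGF2, FGF7 and HGF, mitogens that fibroblasts make, rose by 2.18, 2.25 and 1.68, and BMP2 by 3.36. FGF5, by contrast, was at 156, 159.8 and 155 CPM in control and 39.5, 39.4 and 38 in shRRM2/shp16 (-2.01 ± 0.04, adjusted p = 1.0e-36), and FGF1 fell by 2.15. Among the IGF binding proteins and receptors, 5 of 8 rose and 3 fell. IGFBP5 was at 6656, 6568 and 6670 CPM in control and 20073, 19894 and 20281 in shRRM2/shp16 (1.60 ± 0.02, adjusted p = 3.4e-43), the widest rise of any gene in CPM. IGFBP3 went down, at 792, 838 and 829.7 CPM in control and 229, 235 and 241 in shRRM2/shp16 (-1.80 ± 0.03, adjusted p = 2.1e-40). PAPPA, the protease that cleaves IGF binding proteins, was at 269.6, 256 and 261 CPM in control and 1868, 1804 and 1805 in shRRM2/shp16 (2.80 ± 0.03, adjusted p = 4.0e-48), higher in all 3 doubly targeted libraries.

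Prostaglandin genes rose in 8 of 13 tested cases and fell in 4 (median 0.82, shRRM2 median -0.32). PTGS2, cyclooxygenase-2, which starts the pathway from arachidonic acid, was at 19.9, 18.3 and 19.5 CPM in control and 988, 1019 and 1017 in shRRM2/shp16 (5.71 ± 0.04, adjusted p = 2.6e-54). Its shRRM2 mean was 79.1 CPM, already above control by 2.04. PTGES, the inducible synthase of prostaglandin E2, was at 13.6, 14 and 13.4 CPM in control and 61, 58.6 and 57.5 in shRRM2/shp16 (2.11 ± 0.06, adjusted p = 6.3e-31). Both steps were thus high in all 3 doubly targeted libraries. PTGES3, a synthase that doubles as an HSP90 co-chaperone, fell by 0.69.

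Matrix proteases and their inhibitors rose in 18 of 25 tested cases, 12 of them at least 2-fold, and fell in 6 (median 0.83). MMP3, stromelysin, was at 8.09, 7.88 and 9.89 CPM in control and 321, 320.0 and 324 in shRRM2/shp16 (5.23 ± 0.06, adjusted p = 5.0e-47). MMP1, interstitial collagenase, was at 173, 173 and 176 CPM in control and 745, 737 and 724 in shRRM2/shp16 (2.08 ± 0.03, adjusted p = 6.6e-43). Both lie in the MMP interval of chromosome 11 (chr11:102520508-102955734, also chosen after its values were seen), where 4 of 9 genes were tested and 4 rose, while MMP14, the membrane-type collagenase elsewhere in the genome, was at -0.04 ± 0.03 (adjusted p = 0.18). ADAMTS5, an aggrecanase, was at 19.4, 22.2 and 20.1 CPM in control and 227, 235 and 231 in shRRM2/shp16 (3.50 ± 0.04), and the secreted protease inhibitor TFPI2 at 336, 355 and 343 CPM in control and 2301, 2337 and 2283 in shRRM2/shp16 (2.74 ± 0.03). TIMP3, a protease inhibitor bound to matrix, fell by 1.82, and TIMP1 rose by 1.04.

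Collagens showed no common direction, with 10 of 22 rising and 11 falling and a median of 0.00. The falls numbered 7 without shRRM2/shp16 replicate c and 6 with limma at a pseudocount of 0.1. COL1A1, the main chain of fibrillar collagen I, was at 12889, 12579 and 12653 CPM in control and 9463, 9271 and 9257 in shRRM2/shp16 (-0.45 ± 0.02, adjusted p = 1.5e-22). COL7A1, of anchoring fibrils, was at 158, 145 and 151 CPM in control and 774, 749 and 749 in shRRM2/shp16 (2.32 ± 0.03, adjusted p = 4.2e-43), so one was lower and the other higher with no overlap. COL3A1 rose by 1.08 and COL11A1 fell by 1.72. Of 36 matrix glycoproteins and crosslinkers, 9 rose and 21 fell (median -0.23), with FN1, fibronectin, down by 0.72, LOXL1, a lysyl oxidase, down by 1.41, and VCAN, versican, up by 1.10.

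Contractile and adhesion genes were lower as a list: 24 of 25 fell, 11 at least 2-fold, and 1 rose (median -0.81). The shRRM2 median was -0.04, and all 25 were below shRRM2. ACTA2, smooth muscle actin, was at 828, 802 and 826 CPM in control and 223, 215 and 217 in shRRM2/shp16 (-1.90 ± 0.03, adjusted p = 1.1e-41). DES, the muscle intermediate filament desmin, was at 7.38, 6.88 and 7.8 CPM in control and 0.739, 0.747 and 0.591 in shRRM2/shp16 (-3.39 ± 0.18, adjusted p = 1.3e-20). TAGLN, an actin crosslinker, fell by 1.71 and FLNC, filamin C, by 1.95, so the low libraries were again the 3 doubly targeted ones. ACTB, cytoplasmic actin, was at 11082, 11061 and 11152 CPM in control and 6389, 6363 and 6499 in shRRM2/shp16 (-0.79 ± 0.02, adjusted p = 7.7e-32), the widest fall of any gene in CPM. VIM, vimentin, the fibroblast intermediate filament, was at 5542, 5245 and 5214 CPM in control and 2172, 2156 and 2081 in shRRM2/shp16 (-1.32 ± 0.03, adjusted p = 2.0e-36). CTGF, a matricellular protein, was the member that rose (0.11 ± 0.02, adjusted p = 5.9e-05). PDGFRA, the receptor that marks many fibroblasts, went from 262, 259 and 269 CPM in control to 708, 714 and 707 in shRRM2/shp16 (1.43 ± 0.03). The 10 fibroblast markers were split, 4 higher and 5 lower (median -0.10). Mean THY1 was at 337 CPM in control and 161 in shRRM2/shp16, and mean DCN at 460 and 275. The smooth muscle marker sums given above moved with the contractile list, DES being on both, and their part in the result was not tested.

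Among genes whose mean log2 CPM was 2 or more, the widest falls came from several families. SEMA7A, a membrane-anchored semaphorin, was at 148, 143 and 148 CPM in control and 10.4, 10.2 and 10.8 in shRRM2/shp16 (-3.81 ± 0.05, adjusted p = 5.1e-43). KRT19, a simple epithelial keratin that cultured fibroblasts can express, was at 43.1, 40.9 and 40.8 CPM in control and 3.27, 2.54 and 3.39 in shRRM2/shp16 (-3.77 ± 0.09, adjusted p = 1.8e-34). LRRC15, a surface protein of TGF-beta-activated fibroblasts, was at 117, 117 and 119.5 CPM in control and 12.6, 13 and 11.3 in shRRM2/shp16 (-3.26 ± 0.05, adjusted p = 3.3e-40). For these 3 genes the highest doubly targeted library was below the lowest control. CLDN4, a tight junction claudin, fell by 3.27, OXTR, the oxytocin receptor, by 3.00, KCNQ5, a potassium channel, by 3.31, and ANO1, a chloride channel, by 2.77. In the list of simple keratins and pregnancy-specific glycoproteins, 11 of 14 tested members fell and 0 rose, with a median of -1.94. With at least 10 counts in every sample, 8 were tested and 7 fell. The shRRM2 median of that list was 1.09, above control. PSG4 was at 12.2, 13.6 and 13.9 CPM in control and 1.85, 2.09 and 2.1 in shRRM2/shp16 (-2.70 ± 0.12), with a shRRM2 mean of 35.1 CPM. Of the 10 PSG genes of chromosome 19 (chr19:42721638-43269530, chosen after its values were seen), 6 were tested and 5 fell, and as near-identical copies they may share reads. Of the 8 epithelial markers, KRT5, KRT14, SFTPC and SCGB1A1 were at 0 in all 6 libraries. MUC1 was at 13.3 CPM in control and 10.0 in shRRM2/shp16, and EPCAM, CDH1 and SFTPB were detected at lower levels.

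Metabolic genes moved by less. Of 31 genes of cholesterol and fatty acid synthesis, 19 fell and 2 rose (median -0.30), and 23 were below shRRM2. SCD, a fatty acid desaturase, fell by 1.27. Of 30 genes of glycolysis and the hypoxia response, 19 fell and 8 rose (median -0.30). LDHA, lactate dehydrogenase, was at 2293, 2311 and 2315 CPM in control and 956, 972 and 995 in shRRM2/shp16 (-1.24 ± 0.02, adjusted p = 1.1e-36), low in every doubly targeted library, while PFKFB4, which makes an activator of glycolysis, rose by 1.60. Cytosolic ribosomal protein genes fell in 34 of 42 cases and rose in 3, none by 2-fold (median -0.20), and 32 were above shRRM2. Nuclear-encoded oxidative phosphorylation genes had 7 rises and 13 falls among 31 with a median of -0.06, and 11 rises and 8 falls with a median of 0.05 under limma at a pseudocount of 0.1, so no direction is given for them.

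Lysosome and autophagy genes rose in 16 of 27 tested cases and fell in 3 (median 0.27). SQSTM1, the autophagy receptor p62, rose by 1.05 and GABARAPL1, an autophagosome protein, by 1.43. GLB1, the lysosomal beta-galactosidase read by the usual senescence stain, was at 61.6, 62 and 60.5 CPM in control and 81.8, 77.9 and 76.2 in shRRM2/shp16 (0.36 ± 0.04, adjusted p = 1.8e-09), which is a rise without overlap. In the list of NRF2 targets and metallothioneins, 11 of 22 rose and 8 fell, and the targets moved apart. AKR1C1, an aldo-keto reductase with close copies, was at 4.36, 4.08 and 4.94 CPM in control and 26.9, 27.9 and 27.7 in shRRM2/shp16 (2.63 ± 0.09, adjusted p = 1.7e-27), whereas HMOX1, heme oxygenase, fell by 0.86. The median of 0.38 was 0.09 when each sample had to hold 10 counts. Genes of the ATF4 and unfolded protein response split as well, 13 higher and 9 lower of 30, with SLC7A5, an amino acid transporter, down by 1.13 and DNAJB9, a chaperone of the endoplasmic reticulum, up by 1.28.

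AP-1 and immediate early genes were changed in both directions, 16 of 35 higher and 14 lower (median 0.04). FOSL1, the AP-1 subunit FRA-1, was at 319, 321 and 331 CPM in control and 84.1, 82.6 and 88.6 in shRRM2/shp16 (-1.93 ± 0.03, adjusted p = 1.8e-38). NR4A2, an orphan nuclear receptor, was at 73.7, 81.2 and 85.7 CPM in control and 414, 418 and 436 in shRRM2/shp16 (2.40 ± 0.04, adjusted p = 1.5e-40). One was thus low and the other high in all 3 doubly targeted libraries, and MYC was at 0.04 ± 0.05 (adjusted p = 0.49). DUSP4, a phosphatase of MAP kinases, rose by 2.85. Of 27 tested genes of Hedgehog, WNT and Notch signalling, 9 rose and 11 fell, and the median changed sign without control replicate a. HHIP, a decoy receptor for Hedgehog ligands, was at 25, 26.4 and 27.2 CPM in control and 4.38, 5.78 and 6.13 in shRRM2/shp16 (-2.26 ± 0.09, adjusted p = 3.5e-26), with a shRRM2 mean of 91.2 CPM. RSPO3, which strengthens WNT signals, rose by 1.95, and WNT5B fell by 1.51.

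Interferon-stimulated genes had a median near 0. Of 34, 27 were tested, 10 rose, 1 of them at least 2-fold, and 5 fell (median 0.13). The falls numbered 3 without control replicate c and 2 with limma at a pseudocount of 0.1. IFIH1, the RNA sensor MDA5, rose by 1.33. OAS3, an antiviral synthetase, was at 45, 42.8 and 39.9 CPM in control and 23.7, 22.3 and 25 in shRRM2/shp16 (-0.85 ± 0.06, adjusted p = 1.0e-15), lower in each doubly targeted library, and ISG15, a ubiquitin-like protein, was at -0.11 ± 0.08 (adjusted p = 0.21). Complement and antigen presentation genes rose in 10 of 14 tested cases, of 27 fixed, and fell in 4 (median 0.52), or in 2 with limma at a pseudocount of 0.1. C3, the central complement protein, was at 3.69, 3.35 and 3.04 CPM in control and 106, 105 and 108 in shRRM2/shp16, without overlap (4.97 ± 0.07, adjusted p = 8.3e-42).

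At the edge of detection, 35 genes had at most 3 counts in every control library and were higher in shRRM2/shp16, and 20 had the converse. Genes this low in one group could pass the filter only through another group, so their direction follows from how they were picked. The genes named here were among the highest of each set by level. C2CD4B, a nuclear factor first described in endothelium as induced by cytokines, had 0 control reads and 59 to 72 in each shRRM2/shp16 library, at least 21.0-fold higher against a floor of 3 counts per library. The related gene C2CD4A had 1 control read and a ratio of 277 (95% counting interval 49.4 to 10994). PRL, prolactin, had 4 control reads and a ratio of 45 (17.3 to 167). On the lower side, GMNC, a regulator of multiciliated cells, was at 1.55, 1.68 and 0.953 CPM in control and 0.0528, 0 and 0.0537 in shRRM2/shp16. These intervals cover counting error only.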

How the data were processed

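RNA was measured in 9 libraries, 3 a group, by stranded sequencing of RNA depleted of ribosomal RNA, per the labels' protocols. The authors deposited raw read counts per Ensembl gene, in files laid out as HTSeq writes them, and a table of log2 RPKM values. The submitters' processing notes name TopHat2 2.0.9, Cufflinks 2.0.2, Cuffdiff and the build GRCh38, and the counting tool's version and strand setting are not given in the sources used here. Tally lines (no feature, ambiguous, not unique) entered neither library sizes nor tests. Non-unique alignments were 43.2% to 44.9% of tallied entries in the 6 libraries compared, so genes with near-identical copies are undercounted. Back-calculation from the counts showed the deposited log2 values to be on a scale with an offset of 1000 RPKM, and the column of shRRM2 replicate c not to match its counts.

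The test was run in edgeR 4.0.16 under R 4.3.3. All 9 libraries entered 1 quasi-likelihood fit after filterByExpr and TMM scaling, with 6 residual degrees of freedom, two-sided tests and Benjamini-Hochberg adjustment over all 16561 tested genes. CPM values use the TMM-scaled library sizes. The limma alternatives named below applied no TMM scaling. Counting intervals and floors cover counting error only, since reads carry no molecular identifiers. Alternatives were RLE factors, DESeq2 1.42.0, other count filters, the 6 libraries alone, a replicate block, each library left out, and limma 3.58.1 on the deposited log2 RPKM values and on RPKM with a pseudocount of 0.1.

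The genes compared and the 30 lists were chosen with earlier results of these data known. The rule for named genes took the targeted genes, 8 fixed genes, the 8 highest and 8 lowest fold changes (mean log2 CPM 2 or more, groups apart), the 6 widest CPM differences each way, 4 genes at the floor each way, and up to 3 members a list and direction with the most abundant member. Other genes were named after their values were seen, as were the intervals and promoters. Positions and gene types are from GENCODE 29 and promoter sequences from RefSeq on GRCh38.p14, where 17969 gene identifiers had an entry.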

Additional observations from a re-analysis of the deposited data

How the results depend on the processing

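The count of genes called in shRRM2/shp16 against control was 10339, 9222 with DESeq2, 10335 without the low-count filter, 9659 with at least 10 counts in every sample and 10422 with only the 6 libraries compared. Leaving out 1 library of either group gave 9744 to 9987 calls, 4623 to 4853 of them higher and 5011 to 5230 lower. At least 2-fold, 681 genes were higher with at least 10 counts in every sample, where fewer genes are tested. With limma at a pseudocount of 0.1, 657 were lower. The limma fits applied no TMM scaling, whose factors were 0.961 to 0.972 in control and 1.037 to 1.040 in shRRM2/shp16. The part of this scaling in the lower count was not tested. On the deposited log2 RPKM scale 0 genes were 2-fold higher and 0 lower with limma, since its offset of 1000 RPKM shrinks every fold change. On that scale 59.3% of calls were higher.

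Of the 211 genes the rule named, 209 kept direction and call with DESeq2 (RPL3 and CFI lost the call), 209 to 211 with 1 library left out, 204 with limma at a pseudocount of 0.1 and 199 on the deposited scale. ATP5F1B, a subunit of ATP synthase, changed direction, from -0.10 to 0.0075 with the pseudocount of 0.1 and 0.0013 on the deposited scale.

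Replicate letters did not pair the libraries, since deviations of same-letter libraries from their group means correlated by -0.020 to 0.049. With the letters as a replicate block 10388 genes were called, 4994 higher and 5394 lower. Counts of 1 to 3 reads limit the genes at the floor, and of the 4141 tested genes at the lowest levels 33.3% were called.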
